A study of Mus musculus with 12 samples.

Results

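The 10 genes described here belong to the pathway that loads peptides onto MHC class I molecules and were examined for DNA methylation. They are Nlrc5, Psmb8, Psmb9, Tap1, Tap2, Tapbp, Calr, Pdia3, Erap1 and B2m, taken by name. For each gene, every CpG with at least 10 methylation calls in all 12 libraries was used, both strands summed, from 5 kb outside one gene end to 5 kb outside the other (the gene region). All 10 regions held such CpGs, 397 in all of the 1052856 common CpGs of the series, and 17323 protein-coding gene regions were measured in all.

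CMM cells, GFP-marked mouse leukaemia cells that model inv(16) acute myeloid leukaemia, were injected into a vein of C57BL/6 mice. Once about 1% of blood cells carried GFP, mice received 3 intravenous injections of PBS or of CpG-STAT3dODN (a STAT3 decoy DNA linked to an oligonucleotide that carries CpG), and spleens were taken 1 day after the last. Reduced representation bisulfite sequencing, which reads CpG-rich restriction fragments, was done on 4 libraries in each of 3 groups. PBS libraries held GFP-positive cells of PBS mice, not sorted by CD11b, a myeloid surface marker. CD11b-negative and CD11b-positive libraries held GFP-positive cells of treated mice without or with CD11b, so all 3 groups carry the same leukaemia and only the PBS group lacks both the drug and the CD11b sort. Treatment and CD11b sorting cannot be told apart in a comparison with PBS, and a single leukaemia line limits the model. No label states whether each library is a separate animal, so the p-values reflect the spread between libraries, which may be technical.

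MHC class I molecules show peptides from inside the cell to CD8 T cells. Proteasomes with the subunits Psmb8 and Psmb9 cut proteins, the transporter made of Tap1 and Tap2 carries the peptides into the endoplasmic reticulum, and Tapbp (tapasin), Calr (calreticulin) and Pdia3 hold the empty molecule beside it. Erap1 trims the peptides, B2m (beta-2 microglobulin) is the light chain, and Nlrc5 is a transcriptional activator of the class I genes. Interferon raises many of these genes, and their promoters lie in CpG-rich DNA that is usually unmethylated.

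The libraries held 112671408 to 157223205 methylation calls, with a median of 84 calls per common CpG and library. The CD11b-negative library 2 stood apart from its group: over all common CpGs it lay closest to CD11b-positive library 2, with a mean absolute difference of 2.77 percentage points, and 9.51 to 11.5 points from its own group. Whether it is a mixed or exchanged sort was not tested, and this doubt bears on every CD11b-negative mean. Calls on 8 Y-linked genes as a share of autosomal calls (the Y share, in ppm) were 5.52 to 18.6 in PBS, 8.64 to 40.2 in CD11b-negative and 23.8 to 41.3 in CD11b-positive libraries, with the highest value in library 2 of each treated group and in PBS library 2. The labels give the sex of neither the leukaemia line nor the recipients, and whether the Y share stands for DNA of host cells in the sort was not tested. Marker windows ran 1 kb on each side of the start. For Cd4, Pecam1, Col1a1, Spi1, Csf1r and Cebpe, with no start listed, they lay at an annotated gene end, which may not be a promoter. The endothelial and myeloid medians below mix both kinds. Of the 6 T cell markers 1 window was measured (Cd4, 1.81%, 2.33% and 2.09% in PBS, CD11b-negative and CD11b-positive means), and of the 5 B cell markers 0. The erythroid list had 2 of 4 measured, Epor at 2.96%, 16.3% and 33.3% and Klf1 at 0.741%, 0.816% and 1.30%, and the endothelial and stromal list 3 of 4, with medians of 7.39%, 17.9% and 30.2%. The myeloid list had 4 of 6, with medians of 62.0%, 66.7% and 72.7%, and Cebpa, a myeloid transcription factor gene, was at 3.60%, 3.03% and 1.78%. The part of these differences in the results below was not tested, beyond a fit that adds the Y share.

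The comparison of CD11b-positive with PBS libraries sets treated cells that carry CD11b against leukaemia cells of mice without the drug. The Nlrc5 region rose and was the only 1 of the 10 regions to be called, that is, to pass an adjusted p of 0.05 with a difference of at least 10 points. Over all gene regions 19.1% were called. With a minimum of 5 points the Tapbp, Tap1 and Psmb8 regions were called as well, 4 of the 10 beside 34.6% of all. The libraries of both groups did not overlap, CD11b-positive higher, in 7 of the 10 regions (Nlrc5, Tapbp, Tap1, Psmb8, Psmb9, Erap1 and Tap2), beside 61.4% of all regions. The median difference was +3.33 points over the 10 regions and +1.93 points over all regions. None of the 10 had all CD11b-positive libraries below all PBS libraries, beside 6.25% of all.

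**Figure D1:**
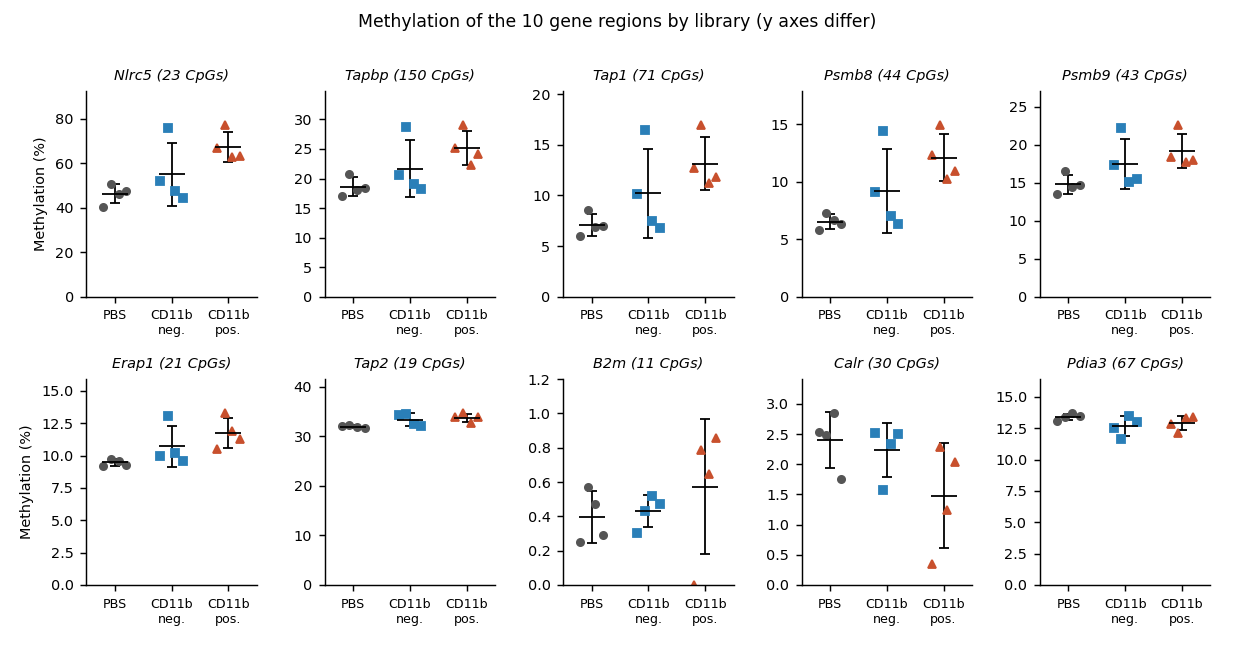
Mean methylation (%) over the common CpGs of each gene region, 1 point per library, with the group mean and SD over 4 libraries as a black bar; the y axes differ. The Nlrc5 panel runs from 40.6% to 77.1% and the B2m panel stays under 1%, and library 2 of the CD11b-negative group is the high square in the Nlrc5, Tapbp, Tap1, Psmb8, Psmb9 and Erap1 panels.

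Nlrc5 (chromosome 8, 94434335 to 94527272, mm10) was measured at 23 CpGs. Its region methylation was 40.6%, 50.8%, 46.2% and 47.4% in the PBS libraries, 52.1%, 75.9%, 47.6% and 44.4% in the CD11b-negative libraries and 67.0%, 77.1%, 62.8% and 63.1% in the CD11b-positive libraries. Every CD11b-positive library was above every PBS library, and CD11b-negative library 2 alone lay in the CD11b-positive range. The means were 46.3% ± 4.25 in PBS and 67.5% ± 6.68 in CD11b-positive cells (SD, n = 4 each), a rise of 21.2 points (adjusted p = 0.00347). It was 18.0 to 22.8 points with any 1 library left out. With the Y share as a term the fitted difference was 7.24 points (adjusted p = 0.122), no longer called, and 4 of all regions were called (0.0231%).

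The rise of Nlrc5 lay outside its lower-coordinate end. The 3 CpGs from 123 to 185 bp inside that end were at 1.71% ± 0.582 in PBS and 1.03% ± 0.730 in CD11b-positive cells. Of the other 20 CpGs, 13 were called, all higher. Of 5 tiles of 1000 bp with at least 3 CpGs, 4 were called, 1 in the flank and 3 in the gene. The tile at chr8:94473001-94474000 inside the gene was at 47.2%, 59.5%, 54.2% and 47.1% in PBS, 61.3%, 88.9%, 57.0% and 49.9% in CD11b-negative and 87.2%, 93.6%, 79.7% and 72.8% in CD11b-positive libraries. The PBS and CD11b-positive values did not overlap, and the mean rose by 31.3 points (adjusted p = 0.00312). The tile at chr8:94520001-94521000, near the other end, rose from 46.7% to 77.7% (adjusted p = 0.00365). In the flank the tile at chr8:94429001-94430000 rose from 63.7% to 82.6% (adjusted p = 0.00605). The fourth, at chr8:94499001-94500000, rose from 70.4% to 84.5% (adjusted p = 0.0466), and this call was lost without any of PBS libraries 1 to 4 or CD11b-positive libraries 1 and 4 (11.5 to 15.4 points, adjusted p = 0.0632 to 0.105). The CpG at 94520309, in the tile at chr8:94520001-94521000, went from 23.9% to 69.1%, the largest rise among the 23 CpGs (45.3 points, adjusted p = 0.00105). With the Y share as a term none of the 4 tiles was called, with fitted differences of 1.96 to 13.98 points (adjusted p = 0.456 to 0.870).

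**Figure D2:**
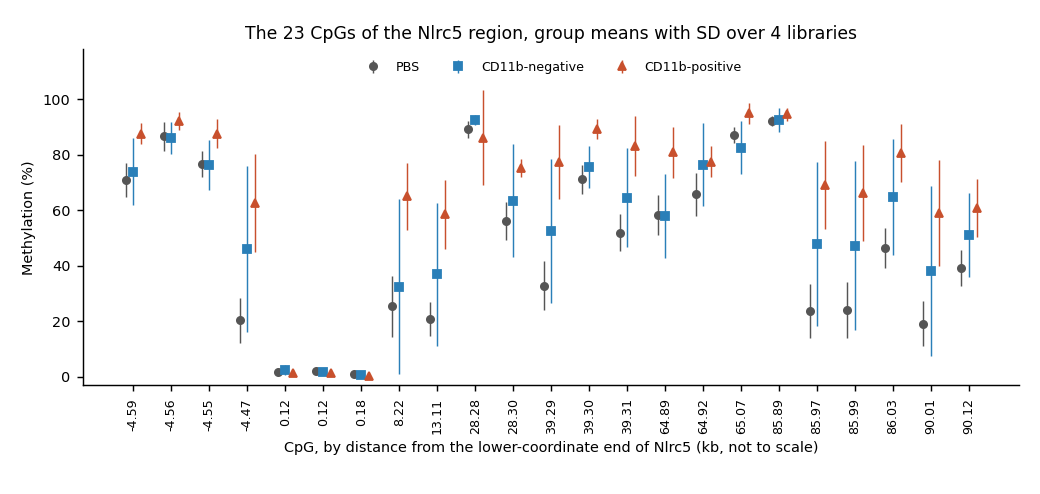
Group mean methylation (%) with SD over 4 libraries at each of the 23 CpGs of the Nlrc5 region, in order from the lower-coordinate end; the x axis gives the distance in kb and is not to scale. The 3 CpGs just inside the lower-coordinate end are under 3% in every group, while the 13 called CpGs lie in the flank and deeper in the gene.

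Tapbp (chromosome 17, 33919478 to 33929290, mm10, plus strand), the bridge between the empty class I molecule and the peptide transporter, was measured at 150 CpGs. Its region was at 18.6% ± 1.58 in PBS, 21.6% ± 4.80 in CD11b-negative and 25.2% ± 2.82 in CD11b-positive cells, and the 6.55-point difference to PBS (adjusted p = 0.00585) was under the 10-point minimum. The difference sat in a stretch upstream of the start that overlaps the neighbouring gene Zbtb22, a zinc finger gene. Without flanks the Tapbp gene body differed by -0.0153 points (adjusted p = 0.951).

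The tile 1478 to 2477 bp upstream (chr17:33917001-33918000) was at 26.7%, 50.8%, 35.5% and 38.6% in PBS, 51.0%, 95.02%, 37.0% and 34.0% in CD11b-negative and 75.7%, 95.01%, 71.4% and 62.9% in CD11b-positive libraries. All 4 CD11b-positive libraries were above all PBS libraries, and CD11b-negative library 2 was as high as the highest of them. The mean rose from 37.9% ± 9.96 to 76.3% ± 13.6, by 38.4 points (adjusted p = 0.00414), the largest tile difference among the 10 genes. The next tile, 478 to 1477 bp upstream, rose from 20.7% ± 7.30 to 56.7% ± 18.0 (adjusted p = 0.00516). With the Y share as a term the fitted differences of these tiles were 3.81 and 7.71 points (adjusted p = 0.791 and 0.678), and neither was called.

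The calls upstream of Tapbp ended 730 bp before the start. The longest run of called CpGs, whose bounds were set by the calls themselves, held 25 CpGs between 2588 and 730 bp upstream, all higher. Outside this run 1 further called CpG lay past the gene, in Rgl2. The 5 CpGs of the run nearest to the start, 787 to 730 bp upstream, were almost unmethylated in PBS. The CpG at 33918717, 761 bp upstream, was at 1.6%, 7.0%, 8.5% and 2.6% in PBS, 34.3%, 58.9%, 23.9% and 10.9% in CD11b-negative and 50%, 65.8%, 31.2% and 45.7% in CD11b-positive libraries. Here the CD11b-negative libraries also lay above all PBS libraries, and the rise from PBS to CD11b-positive was 43.2 points (adjusted p = 0.000715). The tile that spans the start was at 0.259% ± 0.133 in PBS and 0.327% ± 0.297 in CD11b-positive cells (adjusted p = 0.791). Its 10 measured CpGs include none of the 11 CpGs in the 300 bases from 250 before to 50 after the start.

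**Figure D3:**
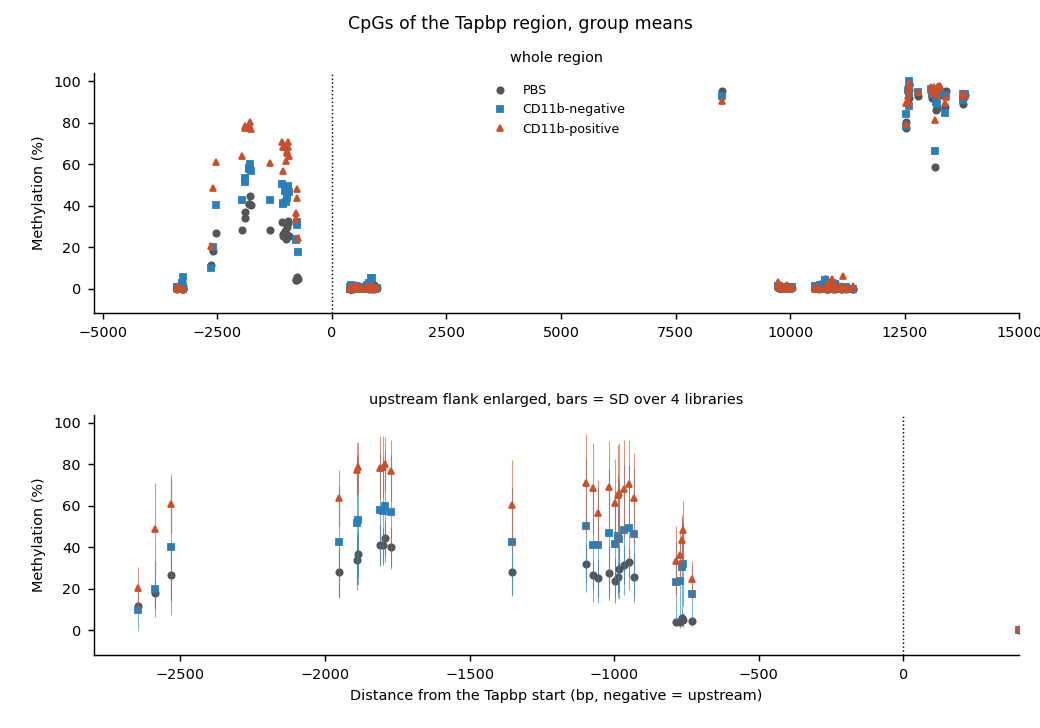
Group mean methylation (%) of the CpGs in the Tapbp region against the distance from the Tapbp start in bp (dotted line), for the whole region and for the upstream flank with SD over 4 libraries. CD11b-positive triangles stand above PBS circles from 2588 to 730 bp upstream, and all groups lie near 0 on the gene side of the start.

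Psmb9, Tap1, Psmb8 and Tap2 follow each other on chromosome 17 within the MHC, so their regions share CpGs: 70 of the 71 CpGs of Tap1, all 44 of Psmb8, 38 of the 43 of Psmb9 and 12 of the 19 of Tap2 also belong to another of them. Their region values are therefore not independent. The Tap1 region was at 7.12% ± 1.10 in PBS and 13.1% ± 2.59 in CD11b-positive cells (6.02 points, adjusted p = 0.00375). The Psmb8 region differed by 5.58 points (adjusted p = 0.00322), the Psmb9 region by 4.38 points (adjusted p = 0.00950) and the Tap2 region by 1.82 points (adjusted p = 0.115). None of the 4 reached 10 points. Without flanks the Psmb9 gene body alone differed by 19.1 points (adjusted p = 0.0156) and was called, beside 19.9% of all gene bodies.

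Psmb9 and Tap1 are transcribed away from each other from starts 225 bases apart, and the sequence between these starts is shown because both genes share it (RefSeq, GRCm38.p6, chr17:34187331-34187555, plus strand, written 5′ to 3′ towards Tap1). Capitals mark a CCAAT match, the letters bound by the factor NF-Y. None of its 12 CpGs was among the common CpGs.

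Psmb9 to Tap1: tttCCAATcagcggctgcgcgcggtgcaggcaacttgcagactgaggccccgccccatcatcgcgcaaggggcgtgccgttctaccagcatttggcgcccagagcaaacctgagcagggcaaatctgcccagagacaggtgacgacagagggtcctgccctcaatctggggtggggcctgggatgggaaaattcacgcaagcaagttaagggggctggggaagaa

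The start windows of both genes, 1 kb on each side, hold the same 31 common CpGs. Their methylation was 0.353% to 0.807% in PBS, 0.365% to 0.868% in CD11b-negative and 0.218% to 0.745% in CD11b-positive libraries, and the groups overlapped (difference -0.0682 points, adjusted p = 0.843). The 1000-bp tile 1330 to 2329 bp downstream of the Psmb9 start, inside Psmb9 and upstream of Tap1 (chr17:34185001-34186000), was at 9.37%, 29.8%, 16.1% and 17.8% in PBS, 37.4%, 65.9%, 18.2% and 26.6% in CD11b-negative and 39.1%, 70.5%, 38.7% and 39.8% in CD11b-positive libraries. Every CD11b-positive library was above every PBS library, and library 2 was the highest in each group. The mean rose by 28.8 points (adjusted p = 0.00837), and with the Y share as a term the fitted difference was 0.507 points (adjusted p = 0.968).

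Inside Tap1, upstream of Psmb8, another stretch gained methylation from a level near 0. The tile 1195 to 2194 bp upstream of the Psmb8 start, in the last part of Tap1 (chr17:34196001-34197000), was at 1.72%, 2.68%, 2.89% and 2.95% in PBS, 7.16%, 17.1%, 5.24% and 5.31% in CD11b-negative and 16.7%, 18.0%, 9.08% and 13.9% in CD11b-positive libraries. Both treated groups lay above all PBS libraries without overlap. The rise from 2.56% ± 0.570 in PBS to 14.4% ± 3.94 in CD11b-positive cells was 11.9 points (adjusted p = 0.000956). With the Y share as a term the fitted difference was 9.003 points (adjusted p = 0.114), under the minimum. Of its 8 CpGs, 5 were called higher. The CpG at 34196961, 1234 bp upstream of Psmb8, was at 2.4%, 4.1%, 3.7% and 3.7% in PBS, 6.8%, 27.7%, 8.8% and 7.6% in CD11b-negative and 18.2% to 31.9% in CD11b-positive libraries. It and the CpG at 34196956 were the 2 of the 397 CpGs still called for CD11b-positive against PBS with the Y share as a term, with fitted differences of 14.3 and 10.96 points (adjusted p = 0.00603 and 0.00766, and 0.105% of all common CpGs were called in that fit).

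The tile at chr17:34193001-34194000, inside Tap1, rose from 53.2% to 76.5% (adjusted p = 0.0146). The Psmb8 start window was at 0.650% to 1.14% in PBS and 1.32% to 2.60% in CD11b-positive libraries, without overlap (0.863 points, adjusted p = 0.0353), a difference under the minimum. Tap2, the other transporter subunit, was at 1.31% ± 0.170 in PBS and 1.09% ± 0.739 in CD11b-positive cells at its lower-coordinate end. Its 1 called CpG, at 34215414 in the gene, rose from 81.8% to 93.0% (adjusted p = 0.00325), and without PBS library 4 by 9.19 points, under the minimum.

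**Figure D4:**
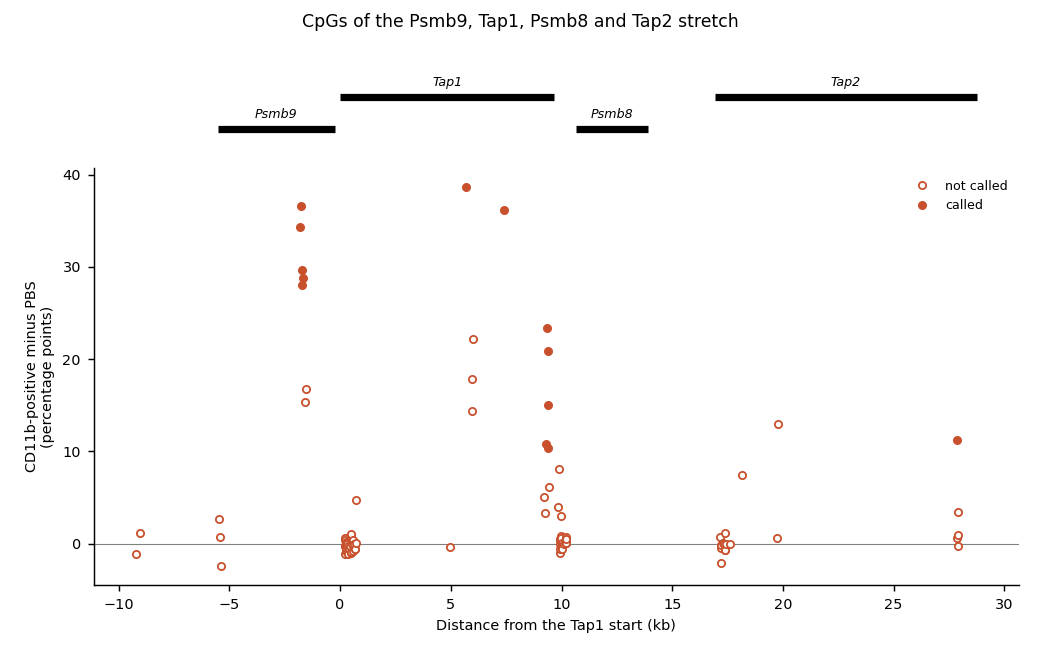
CD11b-positive minus PBS methylation (percentage points) at each CpG of the Psmb9, Tap1, Psmb8 and Tap2 regions against the distance from the Tap1 start in kb, filled where called; black bars above are the genes. Called CpGs lie inside Psmb9, inside Tap1 and before Psmb8, 1 lies in Tap2, and none lies in the dense cluster at the Psmb9 and Tap1 starts.

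B2m, Pdia3 and Calr, which form or hold the class I molecule, and the peptidase Erap1 were low in their start windows in every library. The promoters of B2m and Pdia3 are shown because their own CpGs were measured (RefSeq, GRCm38.p6, the 250 bases before the start, plus strand, 5′ to 3′, capitals marking the measured CpGs). They lie at chr2:122147437-122147686 for B2m and chr2:121413652-121413901 for Pdia3.

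B2m: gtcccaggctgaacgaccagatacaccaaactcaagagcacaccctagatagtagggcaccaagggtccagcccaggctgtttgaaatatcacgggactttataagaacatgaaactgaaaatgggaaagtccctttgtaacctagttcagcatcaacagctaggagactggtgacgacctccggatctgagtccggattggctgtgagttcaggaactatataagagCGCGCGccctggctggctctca

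Pdia3: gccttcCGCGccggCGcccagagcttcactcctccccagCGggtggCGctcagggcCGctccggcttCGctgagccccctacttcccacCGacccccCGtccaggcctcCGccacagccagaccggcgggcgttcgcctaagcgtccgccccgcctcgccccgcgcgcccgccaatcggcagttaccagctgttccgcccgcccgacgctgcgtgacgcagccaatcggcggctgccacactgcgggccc

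In the window of 300 bases from 250 before to 50 after the start, the 9 measured CpGs of B2m averaged 0.207% to 0.698% in PBS, 0.370% to 0.527% in CD11b-negative and 0% to 0.958% in CD11b-positive libraries. The 10 of Pdia3 averaged 0.679% to 0.986%, 0.444% to 0.884% and 0.690% to 1.38%. The groups overlapped for both genes. The B2m sequence holds gaaactgaaa, a match to the interferon-stimulated response element (GAAA, any 2 bases, GAAA) searched on both strands, whose first base lies at -139. Of the 8 members with a promoter entry, Erap1 also held this match, and 3.49% of 27025 promoters of 300 bases did. The gamma-interferon activation site TTCNNNGAA was found in the promoter of Psmb8 alone among the 8 and in 8.47% of all, and CCAAT in 6 of the 8 and 37.9% of all.

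The B2m region was at 0.397% ± 0.151 in PBS, 0.431% ± 0.0922 in CD11b-negative and 0.573% ± 0.392 in CD11b-positive cells (adjusted p = 0.349 for CD11b-positive against PBS). All 11 of its CpGs lay under 5% in PBS, and 0 were called. Calr was at 2.40% ± 0.463 in PBS and 1.48% ± 0.873 in CD11b-positive cells, a difference of -0.923 points (adjusted p = 0.0739) with overlapping libraries. Erap1 was at 9.47% ± 0.255 in PBS and 11.7% ± 1.15 in CD11b-positive cells (2.27 points, adjusted p = 0.00741), without overlap. Of its 21 CpGs 1 was called, at 74642649 in the gene, 2796 bp after the start, where methylation rose from 46.8% ± 6.60 to 71.2% ± 9.49 (adjusted p = 0.00930).

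Pdia3 alone among the 10 genes had CpGs called lower, and they lay past its end in Ell3, an elongation factor gene. The Pdia3 region as a whole was at 13.4% ± 0.237 in PBS and 12.9% ± 0.571 in CD11b-positive cells (adjusted p = 0.224). The CpG at 121442094 was at 82.5%, 74.3%, 80.3% and 82.8% in PBS, 58.9%, 26.1%, 80.8% and 72.3% in CD11b-negative and 33.8%, 33.3%, 64.8% and 61.1% in CD11b-positive libraries. It fell by 31.7 points (adjusted p = 0.00690), and the CpG at 121442100 fell by 26.5 points (adjusted p = 0.00756). Their tile was lower by 4.22 points without overlap (12.7% against 8.50%, adjusted p = 0.0175).

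None of the 10 start windows was called for CD11b-positive against PBS, beside 8.65% of all start windows. In the promoters of 300 bases of Tapbp, Tap1, Psmb8, Psmb9 and Calr 0 CpGs were measured. The windows of these genes therefore rest on CpGs farther from the start and do not show the methylation of the promoter itself. The quasi-binomial test gave an unadjusted p under 0.05 for 2 of the 10, beside 5031 of all 13932 windows. With edgeR 0 of the 10 were called, beside 4.09% of all. The Tapbp window was the highest, at 4.59% ± 1.56 in PBS and 13.2% ± 4.05 in CD11b-positive cells (8.62 points, adjusted p = 0.0159), and it reaches 1 kb upstream into the stretch described above. With 500 bp on each side its difference was 0.0143 points (adjusted p = 0.970), and without CD11b-positive library 3 the 1-kb window differed by 10.3 points (adjusted p = 0.00932) and was called. The other 9 windows were under 3% in every library. The count over all windows fell from 1205 to 114 without PBS library 1 and to 424 or fewer without PBS libraries 3 or 4 or CD11b-positive library 1. The libraries did not overlap, CD11b-positive higher, in 2 of the 10 windows, beside 16.9% of all windows.

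Of the 32 tiles in the regions 9 were called, all higher, in Nlrc5 (4), Tapbp (2) and the Psmb9 to Psmb8 stretch (3), beside 36.1% of all tiles (32.4% called higher). The tiles with the largest losses were near 0 in both groups for Tapbp (chr17:33920001-33921000, 0.503% in PBS against 0.414%), Psmb9 and Tap1 (chr17:34187001-34188000, 0.491% against 0.187%), Psmb8 and Tap2 (chr17:34204001-34205000, 1.38% against 1.155%) and Nlrc5 (chr8:94434001-94435000, 1.71% against 1.03%), all with overlapping libraries. The largest gains of the other genes were 3.17 points in Tap2 (chr17:34215001-34216000, adjusted p = 0.0141), 1.79 points in Pdia3 (chr2:121429001-121430000), 0.430 points at the Erap1 start (chr13:74639001-74640000) and 0.176 points at the B2m start (chr2:122147001-122148000). The other called tiles and every single CpG given here were singled out after their values were seen. The libraries did not overlap in 14 tiles with CD11b-positive higher and in 1 with it lower, beside 50% and 5.77% of all tiles. Of the 397 CpGs 55 were called, 53 higher and 2 lower, beside 16.7% of all common CpGs (13.3% higher and 3.48% lower). Neither share stood above the share over all features.

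The CpGs were also counted by distance from the start and by level. Of 101 CpGs within 500 bp of a start 0 were called, and their mean was 0.489% ± 0.0936 in PBS and 0.560% ± 0.185 in CD11b-positive cells. Of 97 CpGs more than 500 and up to 2500 bp away 33 were called higher, with means of 9.72% ± 2.61 and 21.7% ± 5.20. Of 157 farther CpGs 6 were called higher and 2 lower, and of 42 CpGs nearest to Nlrc5 or Tap2, whose start is not in the promoter table, 14 were called higher. These shares were 0%, 34%, 5.1% and 33.3%, beside 4.46%, 11.7%, 25.3% and 14.2% of the CpGs of all protein-coding gene regions in the same classes. By level in PBS, 8 of the 289 CpGs under 5% were called, 45 of the 65 from 5% to 80% (44 higher) and 2 of the 43 above 80%, that is 2.77%, 69.2% and 4.65%. Over all common CpGs 0.451% of those under 5%, 46.4% of those from 5% to 80% and 3.94% of those above 80% were called. The median difference of the 65 was +31.2 points, against +11.1 points over the 358187 such CpGs of the series. The 10 genes had fewer CpGs of this kind, 16.4% of theirs against 34.0% of all. Neighbouring CpGs were counted singly and are not independent, so a few stretches carry these shares. Of the 45 called CpGs from 5% to 80%, 22 lay in the Tapbp region and 13 in the Nlrc5 region. The run of 25 called CpGs upstream of Tapbp lay mainly in the class from 500 to 2500 bp.

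The comparison of CD11b-negative with PBS libraries asks what changed in the treated cells without CD11b. No gene region of the 17323 was called, so 0 of the 10. The quasi-binomial test gave an unadjusted p under 0.05 for 942 of all regions and 0 of the 10, and edgeR called 0. The Nlrc5 region was at 55.0% ± 14.3 in CD11b-negative cells, 8.74 points above PBS (adjusted p = 0.577), and 1.76 points above without CD11b-negative library 2 (adjusted p = 0.874). The 10 differences ran from -0.742 points (Pdia3) to 8.74 points. No start window, tile or CpG of the 10 genes was called. The tile before Psmb8 was the 1 of 32 without overlap, beside 9.9% of all tiles. It was 6.16 points above PBS (adjusted p = 0.502), and 3.34 points above without library 2 (adjusted p = 0.0554). With the Y share as a term 4 CpGs were called, those from 787 to 761 bp upstream of Tapbp, with fitted differences of 12.1 to 20.6 points (adjusted p = 0.00194 to 0.0499), beside 0.171% of all common CpGs.

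The comparison of both sorted fractions of treated cells asks how CD11b-positive differs from CD11b-negative. No region was called, 0 of the 10, beside an unadjusted p under 0.05 for 1131 of all regions and 0 of the 10, and edgeR called 0. The Nlrc5 region differed by 12.5 points (adjusted p = 0.348). Leaving out CD11b-negative library 2 changed this. In the Nlrc5 region this library alone of its group lay in the CD11b-positive range (75.9%), so its removal had to widen the difference. The calls without it therefore cannot decide whether the fractions differ. With any other library left out no region was called, and the Nlrc5 difference ran from 8.97 to 19.5 points over all such fits. Without CD11b-negative library 2 Nlrc5 differed by 19.5 points (48.0% against 67.5%, adjusted p = 0.0225) and was called, beside 13.7% of all regions. Without it 5 of 32 tiles were called (3 of Nlrc5 and the 2 upstream of Tapbp, beside 19.8% of all tiles) and 26 CpGs (beside 7.32%). The Tapbp tile 1478 to 2477 bp upstream then differed by 35.6 points (adjusted p = 0.0249). This was the upper end of its range with a library left out, 15.2 to 35.6 points. With the replicate number as a block Nlrc5 was called with all libraries kept (12.9 points, adjusted p = 0.0448), beside 4.92% of all regions. The labels do not say whether same-numbered CD11b-positive and CD11b-negative libraries share an animal. The libraries of all 3 groups are shared between comparisons, so the 3 sets of differences are not independent.

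Methylation of the regions that rose ran with the Y share across the libraries. In the Nlrc5 region the lowest value, 40.6%, was in the library with the lowest Y share (PBS 1, 5.52 ppm), and the highest values, 75.9% and 77.1%, in the libraries with the highest (CD11b-negative 2 and CD11b-positive 2, 40.2 and 41.3). PBS library 2, with the highest Y share of its group, was also the highest PBS library in the Nlrc5 and Tapbp regions. The groups fall into separate ranges of Y share for CD11b-positive against PBS, 23.8 or more against 18.6 or less, so the group and the Y share cannot be fully told apart in these 8 libraries.

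**Figure D5:**
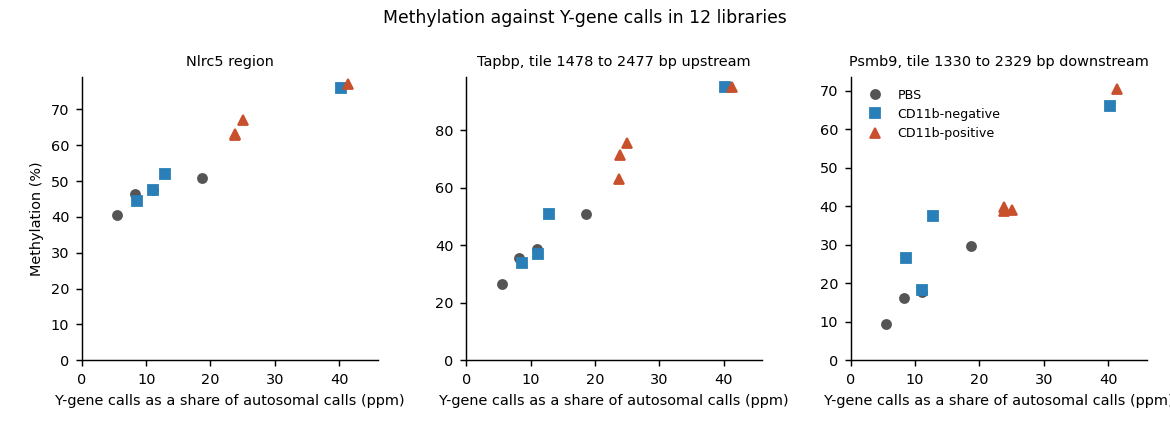
Methylation (%) of the Nlrc5 region, of the Tapbp tile 1478 to 2477 bp upstream and of the Psmb9 tile 1330 to 2329 bp downstream of the start, against calls on 8 Y-linked genes as a share of autosomal calls (ppm), 1 point per library. Library 2 of both treated groups stands at the upper right of each panel and the PBS libraries at the lower left.

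Nlrc5 moved like many other regions. The regions with the most similar methylation over the 12 libraries were those of Dnah17, Bsn, Tle6, Dhtkd1 and Actr1b, with Pearson correlations of 0.9983 for Dnah17, 0.9982 for Bsn and 0.9981 for Tle6. Of 17305 regions that share no CpG with the 10 genes, 6084 (35.2%) had a correlation above 0.95 with Nlrc5. The 12 points share the group differences and the library that stands apart, so these values describe the libraries only.

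Of 55 other genes of class I presentation and its control, 51 gene regions were measured and 2 were called for CD11b-positive against PBS, both higher, beside 19.1% of all regions. Psmb6, the constitutive proteasome subunit that Psmb9 replaces, rose from 33.1% ± 4.81 to 52.9% ± 5.90 (adjusted p = 0.00351). Fcgrt, the heavy chain of the neonatal Fc receptor, which pairs with B2m, rose from 62.4% ± 3.48 to 74.5% ± 8.27 (adjusted p = 0.0430). The median difference of the 51 was +0.593 points, against +1.93 points over all regions. The classical heavy chain genes H2-K1 and H2-D1 were at 1.57% ± 0.153 and 3.21% ± 0.197 in PBS and at 1.98% ± 0.208 and 3.21% ± 0.110 in CD11b-positive cells. The class I relatives H2-Q10 and H2-Q7, chosen after their values were seen, were lower but under the 10-point minimum. H2-Q10 was at 20.5% ± 2.34 in PBS and 13.3% ± 3.07 in CD11b-positive cells (-7.21 points, adjusted p = 0.00704), and H2-Q7 at 5.03% ± 0.805 and 2.53% ± 1.08 (-2.50 points, adjusted p = 0.00548). The relatives H2-Q2 and H2-Q4 were higher, by 1.31 points (adjusted p = 0.00348) and 1.30 points (adjusted p = 0.0216), also under the minimum. Among the 16 control genes, which include Irf1, Rfx5 and Nfya, 0 regions were called, beside the same 19.1%. Of 47 measured start windows of the list 0 were called in any of the 3 comparisons, beside 8.65% of all windows for CD11b-positive against PBS, and 40 were under 5% in PBS.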

How the data were processed

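Reduced representation bisulfite sequencing of 12 libraries in 3 groups of 4 was analysed. The deposited files hold counts per CpG and strand, methylated and unmethylated, not normalised. The submitters' processing notes name mm10 and, as tools, methylKit 1.20.0, Bismark, cutadapt 2.7 and Trim Galore 0.6.4. Neither duplicate removal nor a conversion rate is given in the sources used here. Copies of 1 molecule may be counted more than once.

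CpGs with at least 10 calls in all 12 libraries were kept. Each library's value was the mean fraction over the CpGs of a gene region (gene body and 5 kb on each side), a start window (1 kb on each side of the RefSeq start, or of the gene end with more CpGs for genes without an entry, as for Tap2 and Nlrc5), a 1000-bp tile or a CpG, with at least 3 CpGs per region, window or tile. The 8 libraries of a comparison entered a quasi-binomial logistic model with an F test, its dispersion (at least 1) moderated with limma 3.58.1 (squeezeVar) in bins of mean methylation bounded at 5%, 20%, 80% and 95%. Benjamini-Hochberg adjustment ran over all features of a level. A call needed an adjusted p under 0.05, a difference of at least 10 points and the sign of the model. The step was tested on simulated data. edgeR 4.0.16 (R 4.3.3) was an alternative, beside other coverage minimums, windows, size minimums, summed calls, all 12 libraries, the replicate number as a block, the Y share as a term, and each library left out.

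All 10 genes are named at each level, as are the tiles with the largest gain and loss per region (that of Calr is not reported here), the called genes of the list of 55 and the 5 regions most like the one that differed most. Members, lists and tests were chosen with earlier results of these data known. Gene coordinates and promoters are RefSeq's on GRCm38.p6, the assembly of mm10. Promoter entries matched 8 of the 10 genes. The measured CpGs inside these promoters were all CG in the RefSeq sequence.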

Additional observations from a re-analysis of the deposited data

Results flagged for a closer look

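Within groups of 4, 8 of 96 sets of values had 1 library farther from the others than Dixon's 95% critical value allows, and chance flags about 1 in 20. The sets share libraries and many share CpGs, so they are not independent and this rate cannot be used to judge their number. All 8 flags were the highest value and all were in library 2 of a treated group. The Y share was 40.2 ppm in CD11b-negative library 2 and 41.3 in CD11b-positive library 2. CD11b-positive library 2 was also apart in the Psmb9 region (22.6%), the Psmb8 start window (2.60%), the tile inside Psmb9 at chr17:34185001-34186000 (70.5%) and the Nlrc5 tile at chr8:94520001-94521000 (94.4%). CD11b-negative library 2 was apart in the Erap1 region (13.1%) and the tile before Psmb8 at chr17:34196001-34197000 (17.1%). Without CD11b-positive library 2 the Psmb9 tile differed from PBS by 21.0 points (adjusted p = 0.00501) and the Nlrc5 tile by 25.5 points (adjusted p = 0.000627), and the Psmb8 start window differed by 0.561 points (adjusted p = 0.130).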

How the results depend on the processing

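Of the counts of calls within the 10 genes, 173 values under other settings stayed within 1.5 times and 16 did not; the cause was not tested. For CD11b-positive against PBS, the Y share as a term left 0 regions, 0 tiles and 2 CpGs (over all features 4 regions, 62 tiles, 1101 CpGs and 0 start windows, against 1205). A minimum of 5 points gave 4 regions and 1 start window (5994 of all regions), no flanks 2 regions, calls summed over CpGs 1 start window, and all 12 libraries in 1 fit 26 CpGs (77135 of all CpGs and 1 of all start windows). Of all start windows edgeR called 570, and 557 were called with 500 bp on each side. Leaving out 1 library gave 0 to 1 start windows and 46 to 59 CpGs. For CD11b-negative against PBS the Y share as a term gave 4 CpGs, and 45 of all tiles and 1805 of all CpGs; leaving out 1 library gave up to 20 of all CpGs. For CD11b-positive against CD11b-negative, leaving out 1 library gave 0 to 1 regions, 0 to 5 tiles and 0 to 26 CpGs, and without CD11b-negative library 2 the counts over all features were 2376 regions, 36 start windows, 17226 tiles and 77053 CpGs. That comparison also had calls over all features with the Y share (30 tiles, 172 CpGs) and with all 12 libraries (1 region, 10 tiles, 50 CpGs).

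The replicate number as a block called 1 region (Nlrc5, 12.9 points, adjusted p = 0.0448), 5 tiles and 28 CpGs for CD11b-positive against CD11b-negative, and 853 regions (4.92%), 506 start windows, 11074 tiles and 69443 CpGs of all; for CD11b-negative against PBS it called 205 of all CpGs. For CD11b-positive against PBS it ended the call of the Nlrc5 tile at chr8:94499001-94500000 (12.7 points, adjusted p = 0.0877). Deviations of same-numbered libraries correlated by 0.0972, 0.8875, 0.5347 and 0.5713 between CD11b-positive and CD11b-negative, by 0.1084, 0.6294, 0.1758 and -0.0687 between CD11b-positive and PBS and by 0.3016, 0.6857, 0.2753 and -0.0913 between CD11b-negative and PBS, and 2 of 4 libraries correlated best with their own number each time, so the numbers were not taken as pairs.

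Signs changed for small differences and with the Y share. For CD11b-positive against PBS, the Pdia3 region was at 0.255 points with the Y share, 0.508 with summed calls, 0.279 without flanks and 0.629 with 2 kb, the B2m region and its tile at -0.0435 with the Y share, the Tapbp region at -0.0153 without flanks, and the Erap1 start tile between -0.0400 and 0.702 with 1 library left out. For CD11b-negative against PBS, Calr was at 0.0572 with the Y share, 0.0144 with summed calls and 0.0249 with at least 5 calls; Erap1 at -0.389 and Psmb9 at -0.342 with summed calls; Pdia3 at 0.0357 without flanks and 0.364 with 2 kb; B2m at -0.110 without flanks. Tiles at chr8:94429001-94430000 and chr8:94499001-94500000 were at -0.870 and -2.13 and the Tap1 tile at -0.0303 with the Y share, and chr8:94499001-94500000 at -0.263 with the block. Leaving out 1 library gave -0.0143 to 0.0916 for B2m, -0.389 to 0.0464 for Calr and -1.34 to 3.56 for chr8:94499001-94500000. For CD11b-positive against CD11b-negative, the Y share gave -0.562 for Psmb9, -0.293 for Tap2, -6.49 for chr8:94520001-94521000, -7.64 and -0.858 for both Tapbp tiles, -1.92 for the Psmb9 tile and -1.67 for the Tap1 tile. Pdia3 was at -0.255 with at least 20 calls, the Tapbp region at -0.312 without flanks and its start window at -0.113 with 500 bp. Leaving out 1 library gave -0.0723 to 0.552 for Pdia3 and -0.000437 to 0.847 for Tap2.

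With all 12 libraries in 1 fit the CpGs at 121442094, 121442100, 74642649 and 34193228 were no longer called (adjusted p = 0.0597 to 0.0867). Bisulfite calls do not tell methylation from hydroxymethylation, the fragments read are CpG-rich, and 4 libraries per group with 1 that stands apart limit what the comparisons with CD11b-negative cells can show. At 84 calls in the median, values of single CpGs are less precise than those of tiles and regions.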
